A study of Mus musculus with 6 samples.

Results

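Complement is a blood-borne cascade of proteins that tags and lyses cells, and nucleated cells protect themselves with regulators on their own surface. C3 is the protein on which the classical, lectin and alternative pathways converge. CD55 (decay-accelerating factor) speeds the breakdown of the enzymes that cleave C3, CD46 and the rodent protein CRRY (gene Cr1l) help factor I (gene Cfi) to inactivate deposited C3 fragments, CD59 blocks the membrane pore, and C1 inhibitor (gene Serping1) stops the first proteases of the classical and lectin pathways. Lung epithelium is known to make some complement proteins itself and to carry these regulators.

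The 8 genes described here, Cd55, Cd55b, Cd59a, Cd46, Cr1l, Cfi, C3 and Serping1, were taken by symbol from the 34745 genes of the deposited table. They were chosen by a rule that had the counts of these same libraries in view, above all the difference of Cd55 between the groups, so the members' differences between the groups are a description. No p-value of a member is printed, and a count of members past a threshold stands only beside the share of all genes past it and is no test of the set. MLE-12 cells are an immortalized line of mouse lung epithelium derived from tumors of a transgenic animal that expressed a viral large T antigen in the distal lung epithelium. The NR4A1 overexpression group consisted of 3 libraries of MLE-12 cells transfected with Lipofectamine and an NR4A1 expression plasmid, in which the mouse open reading frame lies in pCMV-SPORT6, and the control group of 3 libraries of MLE-12 cells that received pCMV-SPORT6 alone. Both groups therefore share the cell line, the transfection and the plasmid backbone. NR4A1 is a nuclear receptor that binds DNA without a known hormone. No source used here states that the 3 libraries of a group came from independent cultures, so the spread between them may be partly technical. RNA was extracted from whole cultures, in which a larger share of responding cells and more RNA per cell cannot be told apart.

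The total count per library ranged from 15019038 to 17574340. Nr4a1 had 50660 to 68555 counts with NR4A1 overexpression and 428 to 510 counts with the vector, so each library matched its label, although plasmid and endogenous transcripts are not told apart by these counts. NR4A1 overexpression replicate 2 stood apart from the other libraries. In that library 350 genes had at least 1 CPM (the count scaled to library size, here with TMM factors) and at least 10-fold more than every other library, against 10 such genes in vector control replicate 1 and at most 1 in each of the other 4 libraries. Of the cell type marker lists, 8 of 8 smooth muscle genes, 9 of 10 endothelial genes and 8 of 10 fibroblast genes were highest there. The summed level of the smooth muscle list was 327.2 CPM in NR4A1 overexpression replicate 2, 1.55 and 1.91 CPM in the other NR4A1 libraries and 1.93 to 3.13 CPM in the vector controls. That of the endothelial list was 136.3 CPM against 14.9 and 18.1 CPM and 15.4 to 16.8 CPM, and that of the fibroblast list was 1746 CPM against 979.7 and 946.3 CPM and 919.4 to 1044 CPM. The fibroblast genes not highest in that library were Dcn and Lum. Dcn alone had 878.4 CPM there and 904.6 to 1031 CPM in the other libraries, where it made up most of the fibroblast sum. Every other gene of that list had at most 17.5 CPM in those libraries. The immune list (7.19 to 10.5 CPM over the 6 libraries, with Laptm5 and Tyrobp at 0) and the hepatocyte list (at most 1.39 CPM, 7 of 8 genes in the table) stayed low in all libraries. The lung epithelial list summed to 762.3 to 885.4 CPM in the NR4A1 group and 882.7 to 1015 CPM in the control group. Krt8, Krt19, Nkx2-1, Sftpc, Cdh1 and Sftpb had at least 189 counts in every library. Epcam had 2 to 22 counts. Cldn7 had 11 counts in vector control replicate 1 and Sftpd 2 in NR4A1 overexpression replicate 1, and both had 0 elsewhere. Krt18 had 164 counts in NR4A1 overexpression replicate 2 and 2 to 21 in the others. The fold changes of Cd55, Serping1, C3, C1s1 and C2 are also given without this library.

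Cd55 and Cd55b are neighbouring copies, and a part of their promoters is alike. RefSeq promoters (GRCm38.p6, 250 bases before to 50 after the start) were found for 6 of the 8 genes. The 250 bases before the start of Cd55 and Cd55b were searched for the longest shared ungapped stretch of at least 90% identity. It was 75 bases long with 68 identical ones, between positions -123 and -49 of Cd55. Likeness outside this stretch was not measured. The most similar 30 bases are shown 5′ to 3′ on the minus strand, with the 2 differing bases in capitals, for Cd55 at chr1:130462793-130462822 and for Cd55b at chr1:130423084-130423113.
Cd55: cccgccctcattaaTgagggaacgcccTct
Cd55b: cccgccctcattaaCgagggaacgcccCct
In spite of this shared stretch, the copies were counted very differently in MLE-12 cells.

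Cd55 (ENSMUSG00000026399, chr1:130439027-130462744, minus strand, GRCm38) was the member with the clearest difference between the groups. Its counts in replicates 1, 2 and 3 were 196, 250 and 188 with NR4A1 overexpression and 51, 74 and 65 with the vector alone, and counts below are given in the same order. Every NR4A1 library was above every vector library, with the highest NR4A1 value in replicate 2 and the lowest in replicate 3. The level was 13.0 ± 2.03 CPM in the NR4A1 group and 3.68 ± 0.732 CPM in the control group (SD, n = 3 each). This is a log2 fold change of 1.82 (standard error 0.208), or 3.53-fold. The log2 fold change of Cd55 was 1.71 without NR4A1 overexpression replicate 2, and over the 6 fits that each left out 1 library it lay between 1.68 and 1.97.

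Of the 5 members with enough counts to be tested, 1 (Cd55) was past the threshold, set at a 2-fold change or more with an adjusted p under 0.05, in the higher direction and 0 were past it in the lower direction. Across all 12941 tested genes the same threshold was passed by 0.170% in the higher direction (22 genes) and by 0 genes in the lower direction. Since Cd55 was known to be among those genes when the set was chosen, nothing follows from that share. An unadjusted p under 0.05 at any fold was reached by 1 member in the higher direction (Cd55) and 1 in the lower (C3), beside 4.02% and 2.44% of all tested genes, and nothing is read from this either. The call of Cd55 was lost when any of the other 5 libraries was left out, when genes needed a mean of at least 10 counts, and in 3 limma fits on FPKM values, while it remained without NR4A1 overexpression replicate 2.

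**Figure D1:**
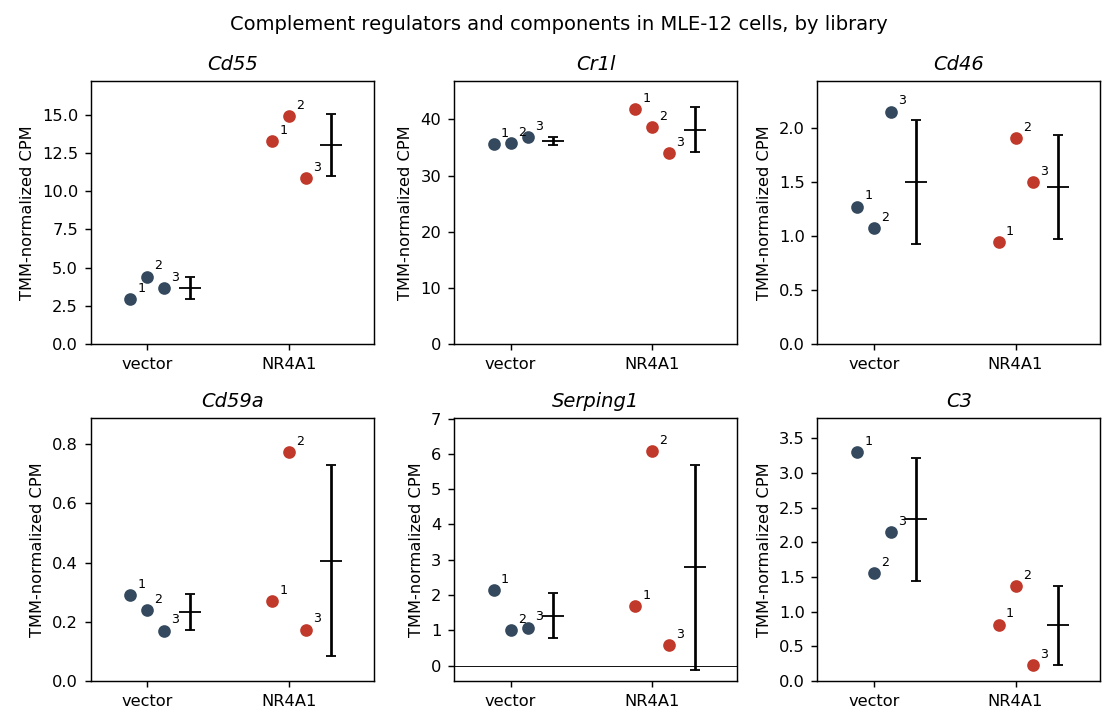
TMM-normalized CPM of the 6 counted members in each library (points, numbered by replicate; vector controls dark, NR4A1 overexpression red), with the mean and SD of each group beside them. The Cd55 points of the groups lie apart, at 2.95 to 4.42 CPM against 10.9 to 14.9 CPM, and Serping1 and Cd59a each have a single high point in NR4A1 overexpression replicate 2.

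The other copy, Cd55b (ENSMUSG00000026401, chr1:130388537-130423009, minus strand), had 0 counts in all 6 libraries. If 3 counts are taken as the limit that a count of 0 allows, this corresponds to a level of up to 0.171 to 0.200 CPM in single libraries and of up to 0.0298 CPM over the 6 together, by counting error only. Of the 50-base stretches in the annotated transcripts of Cd55, 9.12% also occur in transcripts of other genes, namely Cd55b and the antisense gene Gm16083, and 30.4% of the stretches of Cd55b occur in Cd55 or the antisense gene Gm15674. Reads from these stretches cannot be assigned to 1 copy by sequence alone. Because Cd55b had no counts, the sum of both copies equals the count of Cd55 in every library.

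Cr1l and Cd46 encode membrane cofactors of factor I. Cr1l was found at similar levels in both groups, while the low counts of Cd46 left its difference uncertain. Cr1l (ENSMUSG00000016481, chr1:195097382-195131586, minus strand) was counted 620, 649 and 588 times in the NR4A1 libraries and 615, 601 and 652 times in the vector libraries. The groups overlapped, at 38.2 ± 3.99 CPM against 36.1 ± 0.707 CPM (SD, n = 3 each), and the log2 fold change was 0.08 (standard error 0.0946). Over all 6 libraries the coefficient of variation of Cr1l was 7.54%, and 30.7% of the 4838 tested genes within 2-fold of its level varied less. Cd46 (ENSMUSG00000016493, chr1:195036826-195092249, minus strand), which in mice is known chiefly from the testis, was counted 14, 32 and 26 times against 22, 18 and 38 times. Its log2 fold change was -0.04 (standard error 0.382), and the groups overlapped. Over the 6 fits that each left out 1 library the value of Cd46 lay between -0.28 and 0.31, so its direction is not settled. Sequence shared with other genes makes up 13.5% of the Cd46 stretches, nearly all of it with A330023F24Rik on the opposite strand, and 4.34% of those of Cr1l, nearly all of it with the pseudogene Crry-ps, which had 3 to 9 counts per library.

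Cd59a (ENSMUSG00000032679, chr2:104095801-104115354, plus strand), the inhibitor of the membrane pore, was close to the limit of counting. It was counted 4, 13 and 3 times in the NR4A1 libraries and 5, 4 and 3 times in the vector libraries and was removed by the filter on low counts. The groups overlapped, and the only library above 5 counts was NR4A1 overexpression replicate 2. Of the stretches of Cd59a 3.87% occur in its copy Cd59b, which had between 0 and 3 counts per library.

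Of the soluble regulators, Cfi (ENSMUSG00000058952, chr3:129835884-129875332, plus strand), the protease that needs the membrane cofactors above, had 0 counts in all 6 libraries, with the same limits as Cd55b. Serping1 (ENSMUSG00000023224, chr2:84765387-84775444, minus strand) was counted 25, 102 and 10 times in the NR4A1 libraries and 37, 17 and 19 times in the vector libraries. NR4A1 overexpression replicate 2 was the highest of all libraries and replicate 3 the lowest, and the groups overlapped. The level was 2.78 ± 2.91 CPM against 1.41 ± 0.634 CPM (SD, n = 3 each). The log2 fold change was 0.98 (standard error 0.781). It turned to -0.34 when NR4A1 overexpression replicate 2 was left out. The smooth muscle, endothelial and fibroblast marker sums given above were highest in that same library, and their part in the value of Serping1 was not tested.

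C3 (ENSMUSG00000024164, chr17:57203970-57228136, minus strand), the component at the centre of the cascade, was counted 12, 23 and 4 times in the NR4A1 libraries and 57, 26 and 38 times in the vector libraries. Every NR4A1 library was below every vector library, although NR4A1 overexpression replicate 2 lay close to vector control replicate 2, at 1.37 against 1.55 CPM. Across all tested genes 6.22% had all NR4A1 libraries below all vector libraries, and 6.69% had them above. The level of C3 was 0.804 ± 0.570 CPM against 2.33 ± 0.888 CPM (SD, n = 3 each). The log2 fold change was -1.53 (standard error 0.572), and C3 was not past the threshold. It lay between -2.19, without NR4A1 overexpression replicate 2, and -1.10, without NR4A1 overexpression replicate 3.

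The promoters were searched on both strands for AAAGGTCA, the element known as NBRE to which a single NR4A1 molecule can bind, and for the half-site AGGTCA, which is contained in it. The NBRE was found in 0 of the 6 member promoters and in 1.51% of all 32851 promoters of the table. The half-site was found in 1 of the 6, that of C3, and in 16.3% of all promoters. In C3 it starts at position -243 relative to the transcription start, within chr17:57228357-57228386, shown 5′ to 3′ on the minus strand with the half-site in capitals.
C3: tgggaggAGGTCActctagacttcaatggt
These matches describe letters in a short window only and say nothing of binding.

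Per transcript length, the members differed widely in level. FPKM divides the count by gene length and library size, so that levels of different genes can be set side by side. In the vector controls Cr1l was the highest, at 2.84 ± 0.0548 FPKM (SD, n = 3), apart from the others. Cd55 (0.596 ± 0.121 FPKM), Serping1 (0.501 ± 0.223 FPKM) and C3 (0.413 ± 0.156 FPKM) followed, with overlap between neighbours among these 3. Cd46 at 0.181 ± 0.0687 FPKM and Cd59a at 0.0657 ± 0.0169 FPKM lay apart from their neighbours in that order, and Cd55b and Cfi were at 0. In the NR4A1 group Cr1l (2.64 to 3.22 FPKM) was again above Cd55 (1.74 to 2.37 FPKM) without overlap. Serping1 (0.204 to 2.13 FPKM) overlapped Cd55, and Cd46, C3 and Cd59a followed, each overlapping the one before. Without NR4A1 overexpression replicate 2, an alternative chosen after the data were seen, Serping1 (0.204 to 0.588 FPKM) lay apart from both Cd55 and Cd46.

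The transcript level of Cd55 relative to those of Cr1l and Cd46 differed accordingly, and these data hold no protein levels. The ratio of Cd55 to Cr1l in FPKM was 0.651, 0.793 and 0.658 in the NR4A1 libraries and 0.171, 0.254 and 0.205 in the vector libraries. Of the summed FPKM of Cd55, Cr1l and Cd46, Cd55 made up 38.6%, 42.4% and 38.1% in the NR4A1 libraries and 13.9%, 19.5% and 15.9% in the vector libraries. The groups did not overlap in this share, which moves with the Cd55 values already given and is no separate evidence.

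The remaining genes of the cascade were examined to see whether other complement transcripts differed. The list held 54 gene entries of the table, with C1s2 and Itgam each entered under more than a single identifier. Of these entries 15 had no count in any library and 13 passed the count filter. Of these 13, 0 were past the threshold in either direction by edgeR's quasi-likelihood test, 0 had an unadjusted p under 0.05, and DESeq2 and limma-voom also called 0. Of all tested genes, 0.170% were past the edgeR threshold in the higher direction and 0 in the lower. An unadjusted p under 0.05 was reached by 4.02% in the higher and 2.44% in the lower direction. With shares this small, counts of 0 among 13 genes say nothing particular about complement. The log2 fold change was above 0 for 6 genes and below 0 for 7, with a median of -0.06, against 0.01 over all tested genes.

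**Figure D2:**
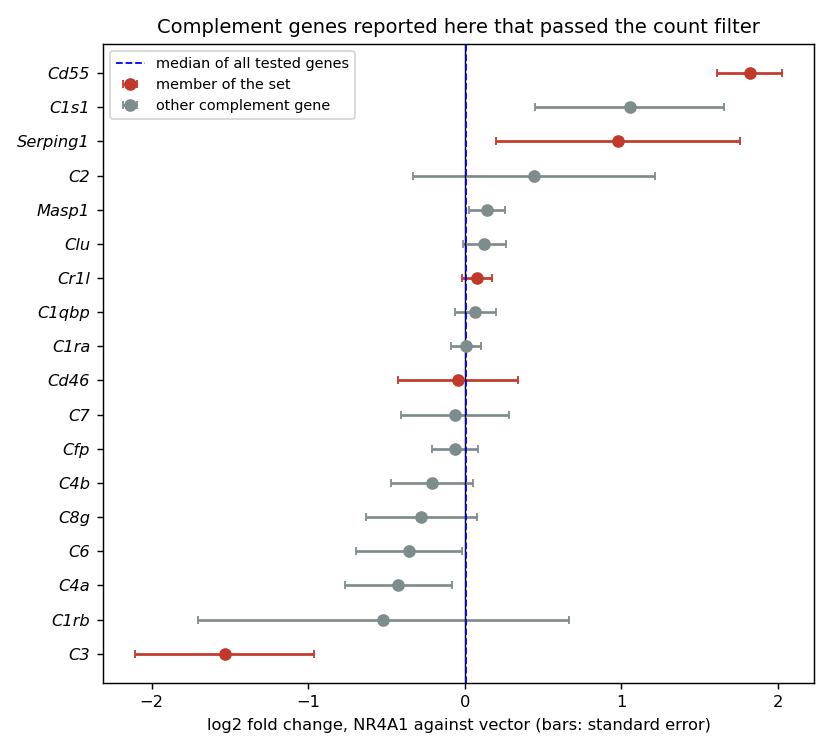
Log2 fold change (NR4A1 overexpression against vector control) with its standard error for the 5 members (red) and the 13 other complement genes (grey) that passed the count filter, beside the median of all tested genes (dashed). Cd55 at 1.82 and C3 at -1.53 lie at opposite ends among the members.

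The most abundant genes of the list per length had nearly equal levels in both groups. They were Clu (clusterin, which keeps the terminal complex out of membranes; mean of 86.9 FPKM over the 6 libraries, log2 fold change 0.12, adjusted p = 0.931) and C1qbp (a largely mitochondrial protein that binds C1q; 26.7 FPKM, 0.07, adjusted p = 0.971). Masp1, a protease of the lectin pathway, had 16.5 FPKM and a log2 fold change of 0.14 (adjusted p = 0.900). C1ra, a protease of the first classical complex, had 7.19 FPKM and a log2 fold change of 0.01 (adjusted p = 0.992). Cfp (properdin, which stabilizes the alternative pathway enzyme) had 7.03 FPKM and a log2 fold change of -0.06 (adjusted p = 0.973). MLE-12 cells thus contained transcripts of several complement proteases and regulators, while Cfb, Masp2, Mbl1, Mbl2, C8a, C8b and C9 had 0 counts in all libraries.

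By pathway, 6 of 11 classical, 1 of 9 lectin, 1 of 3 alternative and 3 of 7 terminal pathway entries passed the count filter. So did 1 of 11 receptor entries and 1 of 13 entries of further regulators. The 3 terminal genes, C6, C7 and C8g, had log2 fold changes of -0.36, -0.06 and -0.28, none past the threshold. The lowest values among the tested genes of the list belonged to C1rb (-0.52, adjusted p = 0.973), C4a (-0.43, adjusted p = 0.900) and C6 (adjusted p = 0.921).

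Among the other complement genes reported here that passed the count filter, C1s1 and C2 had the highest log2 fold changes, followed by Masp1. Both C1s1 and C2 were highest in NR4A1 overexpression replicate 2. C1s1, the partner protease of C1ra, had 33, 120 and 35 counts in the NR4A1 libraries and 49, 15 and 31 in the vector libraries (log2 fold change 1.05, adjusted p = 0.839). Without that library the log2 fold change of C1s1 was 0.21 (adjusted p = 0.885). C2, the protease of the classical C3-cleaving enzyme, had 4, 40 and 7 counts against 16, 12 and 11 (log2 fold change 0.44, adjusted p = 0.964). Without that library the log2 fold change of C2 turned to -1.13 (adjusted p = 0.606), so the positive value rests on 1 library. Both values without it were computed after the data were seen.

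A further 5 genes, among them Cd93 and Thbd, which are known from blood vessel endothelium, had the same shape. The receptor C3ar1 was counted 133 times in NR4A1 overexpression replicate 2 and 1 to 9 times in the other libraries. Cd93 was counted 146 times there, 1 time in NR4A1 overexpression replicate 1 and 0 times elsewhere, and C4bp, a soluble regulator of the classical pathway, was counted 35 times there and 0 times elsewhere. Thbd (thrombomodulin) was counted 8, 291 and 0 times in the NR4A1 libraries and 30, 0 and 0 times in the vector libraries. Colec12, a scavenger receptor with a lectin domain, was counted 5, 182 and 10 times against 39, 1 and 6 times. None of these 5 genes passed the count filter. The groups of Cd55 lay apart with all 6 libraries, so leaving that library out could not bring them together.

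**Figure D3:**
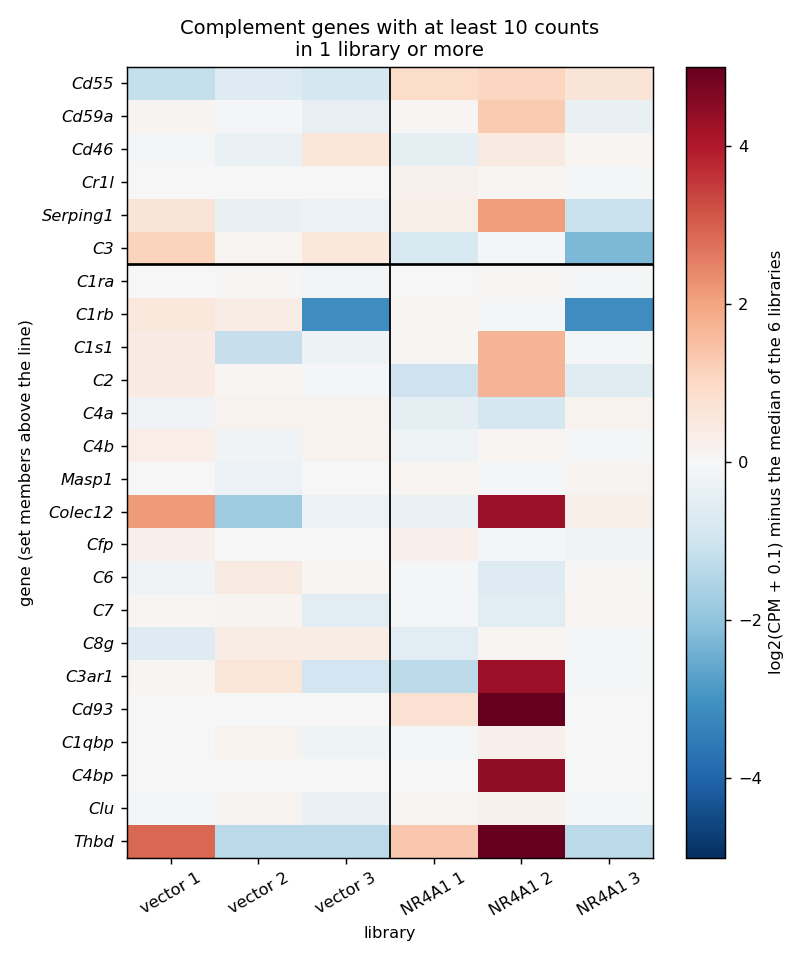
Heat map of log2(CPM + 0.1) minus the median of the 6 libraries for the 24 complement genes with at least 10 counts in a library (6 members above the line, 18 others below), with vector controls on the left and NR4A1 overexpression on the right. Of the 18 others, 9 are highest in NR4A1 overexpression replicate 2, while Cd55 is high in all NR4A1 libraries. C3ar1, Cd93 and C4bp reached 10 counts in NR4A1 overexpression replicate 2 alone and are shown because of it. Clu and C1qbp are only slightly above the next library. The share of all genes highest in that replicate was not counted, so nothing is read from the 9.

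CD55 and CD59 are held in the membrane by a glycosylphosphatidylinositol (GPI) anchor, and the genes that build and attach it were examined. Of 28 such genes 27 were tested, and 0 were past the threshold in either direction by edgeR, with 0 at an unadjusted p under 0.05 and 0 by DESeq2 or limma-voom. Over all tested genes the edgeR shares were 0.170% higher and 0 lower at the threshold, and 4.02% and 2.44% at the unadjusted p. Counts of 0 are therefore not read as a trait of the GPI genes. The median log2 fold change was 0.01. The highest values were those of Pigk, a subunit of the enzyme that attaches the anchor (0.42, adjusted p = 0.776), and Pigw (0.23, adjusted p = 0.897). The lowest were those of Pigyl (-0.33, adjusted p = 0.784) and Pigb (-0.32, adjusted p = 0.784).

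Cd55 lies in a cluster of complement regulator genes on chromosome 1, and its surroundings were examined for genes with the same direction. Within 500 kb of Cd55 the table held 27 genes, of which 13 had no count and 5, Cd55 included, were tested. The long noncoding gene Gm15675 (ENSMUSG00000086825, chr1:130429781-130437191, minus strand) begins 1835 bp beyond the annotated 3′ end of Cd55 on the same strand. It was counted 19, 30 and 17 times in the NR4A1 libraries and 9, 3 and 12 times in the vector libraries, so that the groups did not overlap. Its log2 fold change was 1.53 (standard error 0.482) with an adjusted p = 0.591, and it was not past the threshold. The Cd55 model of RefSeq covers 99.8% of Gm15675, so its counts cannot be told apart from an extended Cd55 transcript, and 31.7% of its 50-base stretches occur in other genes. With the counts of both genes summed, an alternative chosen after the data were seen, the log2 fold change was 1.79. The other tested genes of the window were Pfkfb2 (0.09, adjusted p = 0.952), Yod1 (0.22, adjusted p = 0.896) and AA986860 (-0.05, adjusted p = 0.991).

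**Figure D4:**
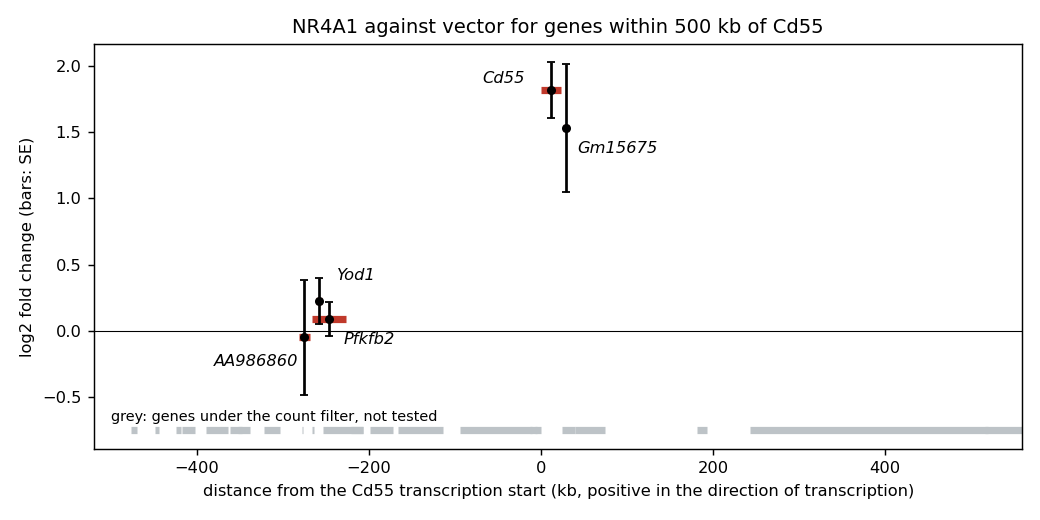
Log2 fold change with its standard error for the 5 tested genes within 500 kb of Cd55 against the distance from the Cd55 transcription start in kb, positive in the direction of transcription. Red bars show the extent of tested genes and grey bars that of genes under the count filter, and only Cd55 and Gm15675 lie above 1.

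The genes whose log2 CPM followed that of Cd55 most closely over the 6 libraries were Rgs7 (Pearson r = 0.998), Eno3 (0.993), C630043F03Rik (0.992), Sfxn1 (0.989) and Krt13 (0.989). These values are a description over 6 libraries in 2 groups. Each of these genes, like Cd55, had every NR4A1 library above every vector library, and the part of that distance in each r was not tested.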

How the data were processed

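RNA from MLE-12 cells, 3 NR4A1 overexpression and 3 vector control libraries grouped by the submitters' labels, was sequenced by the authors from stranded libraries. The paper names a total RNA kit, whereas the labels describe mRNA isolation. The authors deposited 1 table with raw read counts and FPKM values per gene and library. The submitters' processing notes name HISAT2 2.0.4 and GRCm38.p4, and the counting program, annotation and use of strand are not given in the sources used here. Of 34267 identifiers shared with GENCODE M21, 80.8% have the same coordinates, those of all 8 members included. Over 10002 genes with at least 100 counts in every library, the deposited FPKM values followed from the counts, the library totals and 1 length per gene.

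TMM factors, filterByExpr and the quasi-likelihood test of edgeR 4.0.16 (R 4.3.3) were applied to all genes, with Benjamini-Hochberg adjustment over the 12941 tested genes and a threshold of 2-fold or more with an adjusted p under 0.05. Totals of 15019038 to 17574340 counts per library make 3 counts equal to 0.171 to 0.200 CPM, for counting error only. Members and gene lists were chosen with earlier results of these data known. A gene of the complement list is not reported here and was left out of its counts and plots, but not of the fit. Named genes were all members, other complement genes by level, extreme fold change or a single high library, extreme GPI genes, tested neighbours of Cd55 and the 5 genes most like it. Alternatives were DESeq2 1.42.0, voom and FPKM fits with limma 3.58.1, other scalings, filters and thresholds, a replicate block and each library left out. The script was tested on simulated data.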

Additional observations from a re-analysis of the deposited data

How the results depend on the processing

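The count of 1 member past the threshold in the higher direction, Cd55, was the same with DESeq2, limma-voom, no count filter, library totals and median-ratio size factors. It was 0 with a mean of at least 10 counts, with limma on log2(FPKM + 1), log2(FPKM + 0.1) and log2(FPKM + 1) without a filter, and with the replicate block, and 0 to 1 when each library was left out. Members in the lower direction numbered 1, C3, with an unadjusted p and 2-fold, and 0 to 0 with each library left out. The log2 fold change of Cd55 was 0.94 on log2(FPKM + 1) with and without a filter, where the added 1 lowers the change of a gene near that level, and 1.68 to 1.97 with each library left out. That of Serping1 was -0.34 without NR4A1 overexpression replicate 2, and that of C3 was -0.31 on unfiltered log2(FPKM + 1).

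Over all genes, 22 higher became 71 with DESeq2, 8 with a mean of at least 10 counts, 144 with an unadjusted p, 5 with the replicate block, 7, 8 and 7 in the FPKM fits in the order above, and 3 to 25 with each library left out. The count of 0 lower became 2 with DESeq2, 17 with an unadjusted p, 1 without a fold threshold and 0 to 3 with each library left out. The cause of these differences was not tested. The counts of 0 for other complement and GPI genes held in all 18 alternatives, the 3 FPKM fits included. Same-numbered libraries had correlations of deviations of -0.01, -0.05 and 0.25, and 2 of 6 libraries correlated best with their own number, so the labels' numbers were not taken as pairs. Cd59a, Cd46, C3 and Serping1 had 102 counts or fewer in every library, and the part of counting depth in their spread was not tested.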

Other observations

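C1rb, a close copy of C1ra, had 12 counts in each of the first 2 NR4A1 libraries and 20 and 17 counts in the first 2 vector libraries, but 0 in replicate 3 of both groups. C1ra was counted 344 to 383 times in the vector libraries and 319 to 381 times in the NR4A1 libraries, with 352 and 344 counts in the replicates 3. Within 500 kb of Cd55, Pigr, which carries antibodies across epithelia, had 37 counts in vector control replicate 1 and none elsewhere.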
